A study of Homo sapiens with 4 samples.

Results

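The retinoblastoma pocket proteins and the DREAM/MuvB complex were followed through 10 genes: the pocket proteins RB1, RBL1 and RBL2, the MuvB subunits LIN9, LIN37, LIN52, LIN54 and RBBP4, and the transcription factors MYBL2 and FOXM1. They were chosen by name, for what their proteins do, and with earlier results of these data known. The series counted 20263 Ensembl gene IDs in 4 RNA libraries, and all 10 members were among the 13612 genes with enough counts to test. All 4 are mRNA libraries of MDA-MB-231, a long-established triple-negative human breast cancer line. For 2 of them the culture received RB-1 during 24 h, named in the series title as derived from ribociclib, itself a CDK4 and CDK6 kinase inhibitor, and the other 2 carry the treatment label DMSO, the solvent. RB-1 with a hyphen is the compound, known here only by its code name and with no dose in the labels, while RB1 without a hyphen is the retinoblastoma gene. Both groups share the line and the serum-containing medium, and since no label tells whether the 2 libraries of either treatment stem from different cultures, every p here reflects spread among samples that may be technical.

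Pocket proteins hold E2F transcription factors in check until cyclin-dependent kinases phosphorylate them. In resting cells and early in the cycle, p130 (from RBL2) or p107 (from RBL1) joins E2F4 or E2F5, a DP partner and the MuvB core of LIN9, LIN37, LIN52, LIN54 and RBBP4 to form DREAM, which represses genes of the cell cycle. When DREAM comes apart, the same MuvB core is taken over by B-MYB (from MYBL2) and later by FOXM1, and then activates genes of G2 and mitosis. The members therefore include both repressors and activators of the same genes, and several of them are themselves known E2F targets.

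After RB-1, transcripts of FOXM1, RBL1, LIN9 and LIN54 fell to between 2.23-fold and 2.67-fold lower levels than in DMSO, and those of LIN37 rose 2.19-fold. RB1, RBL2, LIN52, RBBP4 and MYBL2 did not pass the test, with log2 fold changes between -0.74 and 0.00. So 4 of 10 members were lower and 1 was higher. The call is an adjusted p under 0.05 (quasi-likelihood test of edgeR, Benjamini-Hochberg over all tested genes). Among all 13612 tested genes, 15.8% were called lower and 12.5% higher, 28.3% in all. The median log2 fold change was -0.58 over the members and 0.01 over all tested genes. In 8 of 10 members both RB-1 libraries lay outside the range of both DMSO libraries, 7 below and 1 above. The same separation was seen in 69.7% of all tested genes, with 34.3% below and 35.3% above. In bulk RNA, fewer cells in the phase that expresses a gene and less RNA of it per cell cannot be told apart.

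**Figure D1:**
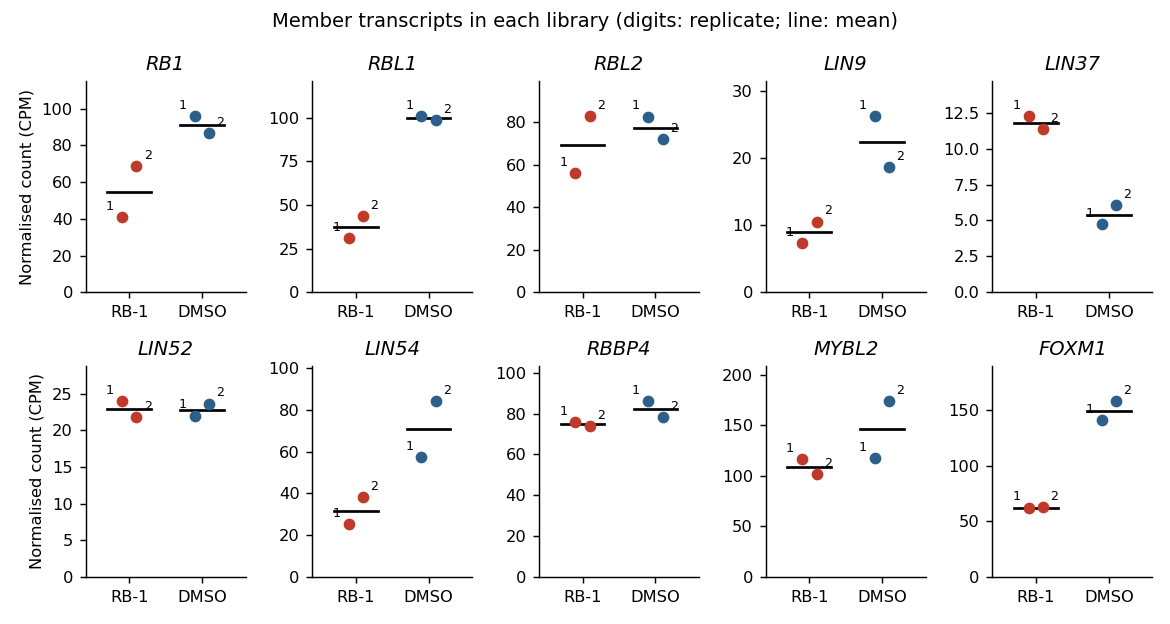
Normalised counts (CPM, linear axis from 0) of the 10 members in the 2 RB-1 and the 2 DMSO libraries, with a line at each group's mean and the replicate number beside each point. FOXM1 lay at 62.3 and 62.4 CPM in RB-1 and at 141 and 158 CPM in DMSO, while the groups of RBL2 and LIN52 overlapped.

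The 4 libraries held 34122874 to 37754168 counts, and TMM factors, which correct for composition, ran from 0.868 to 1.10. Normalised counts are given in CPM, the counts in 1000000 of the TMM-scaled library. Vimentin (VIM) stood at 3565 to 5423 CPM, AXL at 1512 to 1833 and CD44 at 416 to 581 in all 4 libraries, and E-cadherin (CDH1) at 0 to 2 counts and the estrogen receptor gene ESR1 at 4 to 23 counts. Other markers of breast epithelium were not absent: the keratin KRT18 stood at 165 to 311 CPM and ERBB2 at 57.3 to 77.2 CPM in all 4 libraries. The luminal factor GATA3 had 85 and 119 counts in RB-1, against 338 and 716 in DMSO (log2 fold change -2.54, adjusted p = 0.00329), and the progesterone receptor gene PGR had 12 and 20 counts in RB-1, against 51 and 58 in DMSO (-1.91, adjusted p = 0.0220). Of other cell types, the leukocyte marker PTPRC had at most 22 counts, the endothelial PECAM1 at most 42 and the fibroblast COL1A1 at most 265 in any library. Across all tested genes the fold change followed transcript length, with 30.6% of the quartile with the longest transcripts called lower and 22.9% of the quartile with the shortest called higher. Length also ordered the difference between the RB-1 libraries, with a Spearman's rho of 0.418 for replicate 2 over replicate 1 (a description across 13382 genes, which are not independent), against -0.112 between the DMSO libraries. For that reason most members are also given after a correction of the library offsets for transcript length and GC content.

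The letters that E2F and LIN54 are known to read were looked up in the promoters of the members, here 250 bases before to 50 after each annotated start, from RefSeq on GRCh38.p14. Of the 10 members 9 had at least 1 entry, and FOXM1 had none. Searched on both strands were the E2F words TTTCGCGC, TTTGGCGC, TTTCCCGC, TTTGCCGC and TTGGCGG, at least 1 of which stands in 6.56% of all 35116 promoter entries, and the cell cycle homology (CHR) words TTTGAA and TTCGAA, which stand in 16.4%. TTCGAA reads the same on both strands. The 4 promoters with an E2F word are shown because 2 of these genes, RBL1 and LIN54, were lower after RB-1 and the other 2, MYBL2 and LIN52, did not pass the test. Words found are in capitals and each sequence runs 5′ to 3′ along its gene.
RBL1: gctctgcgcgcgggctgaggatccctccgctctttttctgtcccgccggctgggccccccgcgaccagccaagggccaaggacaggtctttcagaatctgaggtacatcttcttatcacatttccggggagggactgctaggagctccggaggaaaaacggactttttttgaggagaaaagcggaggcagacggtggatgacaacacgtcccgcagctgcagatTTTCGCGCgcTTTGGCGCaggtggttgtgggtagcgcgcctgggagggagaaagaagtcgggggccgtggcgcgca
LIN54: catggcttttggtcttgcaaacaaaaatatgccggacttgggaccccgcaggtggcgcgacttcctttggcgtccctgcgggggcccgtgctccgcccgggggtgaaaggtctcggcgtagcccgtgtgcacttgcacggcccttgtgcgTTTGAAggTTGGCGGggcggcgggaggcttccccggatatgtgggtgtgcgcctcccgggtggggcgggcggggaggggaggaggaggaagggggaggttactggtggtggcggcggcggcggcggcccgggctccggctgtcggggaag
MYBL2: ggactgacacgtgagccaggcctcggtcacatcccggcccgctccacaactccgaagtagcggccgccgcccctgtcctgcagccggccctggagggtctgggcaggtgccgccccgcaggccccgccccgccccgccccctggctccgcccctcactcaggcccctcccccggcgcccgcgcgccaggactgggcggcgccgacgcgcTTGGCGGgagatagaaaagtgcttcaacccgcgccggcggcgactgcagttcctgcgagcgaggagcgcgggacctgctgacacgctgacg
LIN52: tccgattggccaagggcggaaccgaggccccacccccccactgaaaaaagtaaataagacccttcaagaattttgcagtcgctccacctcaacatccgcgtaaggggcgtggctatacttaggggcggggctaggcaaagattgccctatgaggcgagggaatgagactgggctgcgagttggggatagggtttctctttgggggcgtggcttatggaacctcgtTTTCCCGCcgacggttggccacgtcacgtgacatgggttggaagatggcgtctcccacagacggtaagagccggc
RBL1 (chr20:37095948-37096247, minus strand) carried a pair of E2F words, TTTCGCGC starting 26 bases before the start and TTTGGCGC starting 16 bases before it. LIN54 (chr4:83010774-83011073, minus strand) had TTGGCGG 92 bases before its start with the CHR word TTTGAA just upstream of it, 100 bases before the start, and a 2nd entry shifted by a few bases held the same pair. MYBL2 (chr20:43666864-43667163, plus strand) had TTGGCGG 41 bases before its start, and LIN52 (chr14:74084706-74085005, plus strand) had TTTCCCGC 25 bases before its start. No E2F word was found in the entries of RB1, RBL2, LIN9, LIN37 and RBBP4. CHR words stood in 1 of 3 entries of LIN9, 1 of 2 of LIN37 and 1 of 2 of RBL2. A match is a run of letters in this window and was not tested as a site in these cells.

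Of the pocket proteins, RBL1 fell and its relatives did not pass the test. RBL1 (ENSG00000080839, chromosome 20), which encodes p107, had 31.2 and 43.6 CPM in RB-1 libraries 1 and 2, against 101 and 98.6 CPM in DMSO libraries 1 and 2. Both RB-1 libraries lay more than 2-fold below either DMSO library. The log2 fold change was -1.42 ± 0.27 (SE; adjusted p = 0.00498), from 37.4 ± 8.74 CPM in RB-1 and 99.7 ± 1.64 CPM in DMSO (SD, n = 2 each). RBL1 was the member whose call held without each of the 4 libraries in turn (adjusted p = 0.00708 to 0.0446, log2 fold change -1.68 to -1.19) and after the length and GC correction (-0.84, adjusted p = 0.0136).

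RB1 (ENSG00000139687, chromosome 13), the tumour suppressor that gave the pathway its name, had 40.8 and 68.6 CPM in RB-1, against 95.9 and 86.7 CPM in DMSO. Both RB-1 libraries were lower than both DMSO libraries, but the RB-1 libraries differed from each other by more than the DMSO ones did. Its log2 fold change of -0.74 ± 0.30 did not pass (adjusted p = 0.0856). RB1 was called lower when RB-1 replicate 2 was left out (-1.16, adjusted p = 0.0191), and after the length and GC correction it was -0.30 (adjusted p = 0.257).

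RBL2 (ENSG00000103479, chromosome 16), which encodes p130, the pocket protein of DREAM in resting cells, had 56.0 and 82.9 CPM in RB-1, against 82.7 and 72.0 CPM in DMSO. The groups overlapped, with 1 RB-1 library below and 1 just above both DMSO libraries, and the log2 fold change was -0.16 ± 0.28 (adjusted p = 0.703). About 9.85% of its exon bases are shared with a gene on the opposite strand and 8.33% with AKTIP, also on the opposite strand, and whether counting used strand is not stated in these sources.

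The balance between these relatives can be read inside a library, where no scaling enters. There were 0.557 and 0.525 RBL1 counts per RBL2 count in RB-1, against 1.22 and 1.37 in DMSO. RBL1 thus outnumbered RBL2 in counts in both DMSO libraries and was below it in both RB-1 libraries, whose ratios were close to each other. Per RB1 count there were 0.765 and 0.635 RBL1 counts in RB-1, against 1.05 and 1.14 in DMSO. The groups did not overlap in either ratio, and an exact two-sided permutation test of 2 against 2 libraries cannot go below p = 0.333. RBL1, RB1 and RBL2 have longest transcripts of 5684, 4793 and 4906 bases, so these ratios compare transcripts of similar length.

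**Figure D2:**
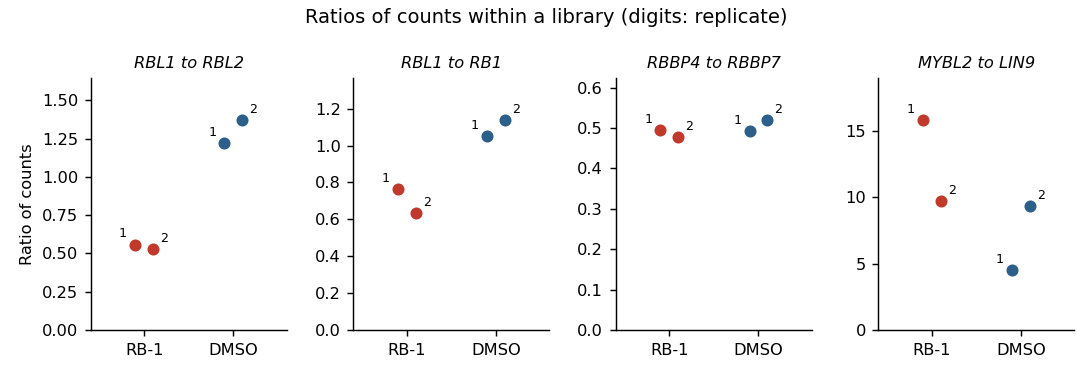
Ratio of the counts of 2 genes within each library (linear axes from 0) for the 2 RB-1 and the 2 DMSO libraries, with the replicate number beside each point. RBL1 per RBL2 was 0.557 and 0.525 in RB-1 and 1.22 and 1.37 in DMSO, while RBBP4 per RBBP7 lay between 0.478 and 0.519 in all 4 libraries.

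In the MuvB core the subunits did not move as one: LIN9 and LIN54 fell, LIN37 rose, and LIN52 and RBBP4 did not pass. After the length and GC correction LIN9 was still lower, LIN54 and LIN37 did not pass, and RBBP4 was called higher. LIN9 (ENSG00000183814, chromosome 1), the subunit that binds B-MYB together with LIN52, had 7.37 and 10.5 CPM in RB-1, against 26.2 and 18.6 CPM in DMSO. Every RB-1 value was below every DMSO value, with a log2 fold change of -1.33 ± 0.33 (adjusted p = 0.0148). LIN9 did not pass when DMSO replicate 1 (-1.06, adjusted p = 0.135) or RB-1 replicate 1 (-1.08, adjusted p = 0.0683) was left out, or with library totals alone (-1.14, adjusted p = 0.0508), and its call held after the length and GC correction (-0.97, adjusted p = 0.0168).

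LIN54 (ENSG00000189308, chromosome 4), the subunit that reads the CHR word in DNA, had 25.5 and 38.1 CPM in RB-1, against 57.4 and 84.4 CPM in DMSO. The groups were apart, with a similar spread within each on the log2 scale, and the log2 fold change was -1.16 ± 0.32 (adjusted p = 0.0213). It did not pass without DMSO replicate 2 (-0.83, adjusted p = 0.232), without RB-1 replicate 1 (-0.89, adjusted p = 0.111), with library totals alone (-0.93, adjusted p = 0.0639) or after the length and GC correction (-0.57, adjusted p = 0.152). At 6127 bases its longest transcript is in the quartile of longest transcripts. With a correction for length alone LIN54 kept its call (-0.80, adjusted p = 0.0449). With a correction for GC content alone it did not pass (-0.70, adjusted p = 0.0874).

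LIN37 (ENSG00000267796, chromosome 19), a subunit that DREAM needs to repress its targets, had 12.3 and 11.4 CPM in RB-1, against 4.73 and 6.07 CPM in DMSO, from 463 and 425 counts in RB-1 and 165 and 199 counts in DMSO. It was the single member with both RB-1 libraries above both DMSO libraries (log2 fold change 1.13 ± 0.32, adjusted p = 0.0248). LIN37 did not pass when DMSO replicate 1 (0.96, adjusted p = 0.194), DMSO replicate 2 (1.34, adjusted p = 0.0933) or RB-1 replicate 1 (1.07, adjusted p = 0.0821) was left out, or after the length and GC correction (0.57, adjusted p = 0.125). Its longest transcript, 1635 bases, is the shortest among the members and in the quartile of shortest transcripts. The value is uncertain for another reason: 26.7% of its exon bases are shared with ENSG00000188223 on the same strand and 41.8% with a gene on the opposite strand. ENSG00000188223 itself had 71 and 46 counts in RB-1, against 41 and 44 in DMSO.

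LIN52 (ENSG00000205659, chromosome 14), whose phosphorylation by the kinase DYRK1A lets p107 or p130 bind MuvB, had 24.0 and 21.8 CPM in RB-1, against 22.0 and 23.7 CPM in DMSO. The groups overlapped completely, with a log2 fold change of 0.00 ± 0.28 (adjusted p = 0.994). RBBP4 (ENSG00000162521, chromosome 1), a histone-binding protein that also serves several chromatin complexes, had 75.8 and 73.9 CPM in RB-1, against 86.2 and 78.1 CPM in DMSO. Its RB-1 values were slightly lower in both libraries, with a log2 fold change of -0.13 ± 0.24 (adjusted p = 0.711). After the length and GC correction the sign turned and RBBP4 was called higher (0.69, adjusted p = 0.0472). It did not pass with a correction for length alone (0.48, adjusted p = 0.155) or for GC content alone (0.33, adjusted p = 0.265). Its longest transcript, 7943 bases, is the longest among the members. About 18.0% of the exon bases of RBBP4 are shared with SYNC on the opposite strand. RBBP7, the close relative of RBBP4, had 153 and 155 CPM in RB-1, against 175 and 151 CPM in DMSO, and the count ratio of RBBP4 to RBBP7 was 0.495 and 0.478 in RB-1, against 0.492 and 0.519 in DMSO.

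Of the activators that take over MuvB, FOXM1 fell and MYBL2 did not pass. FOXM1 (ENSG00000111206, chromosome 12), the forkhead factor of G2 and mitosis, had 62.3 and 62.4 CPM in RB-1, against 141 and 158 CPM in DMSO. The RB-1 libraries were nearly equal and each lay more than 2-fold below either DMSO library. The log2 fold change was -1.26 ± 0.24 (adjusted p = 0.00433), the smallest p among the members, from 62.3 ± 0.0749 CPM in RB-1 and 149 ± 12.4 CPM in DMSO (SD, n = 2 each). It did not pass without DMSO replicate 2 (-1.15, adjusted p = 0.0528), and after the length and GC correction it was -1.40 (adjusted p = 0.00193). FOXM1 shares 15.9% of its exon bases with ITFG2 on the opposite strand.

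MYBL2 (ENSG00000101057, chromosome 20), which encodes B-MYB, had 116 and 102 CPM in RB-1, against 118 and 174 CPM in DMSO. RB-1 replicate 1 lay just under DMSO replicate 1, and the DMSO libraries differed from each other by more than the groups' nearest values. The log2 fold change was -0.42 ± 0.26 (adjusted p = 0.249), and it passed after the length and GC correction (-0.74, adjusted p = 0.0293). MYBL2 also passed with a correction for GC content alone (-0.69, adjusted p = 0.0404), but not for length alone (-0.54, adjusted p = 0.115). The number of MYBL2 counts per LIN9 count was 15.8 and 9.69 in RB-1, against 4.49 and 9.35 in DMSO, so that the lower RB-1 library and the higher DMSO library nearly met. FOXM1 per LIN9 was 8.45 and 5.93 in RB-1, against 5.36 and 8.49 in DMSO, and overlapped.

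**Figure D3:**
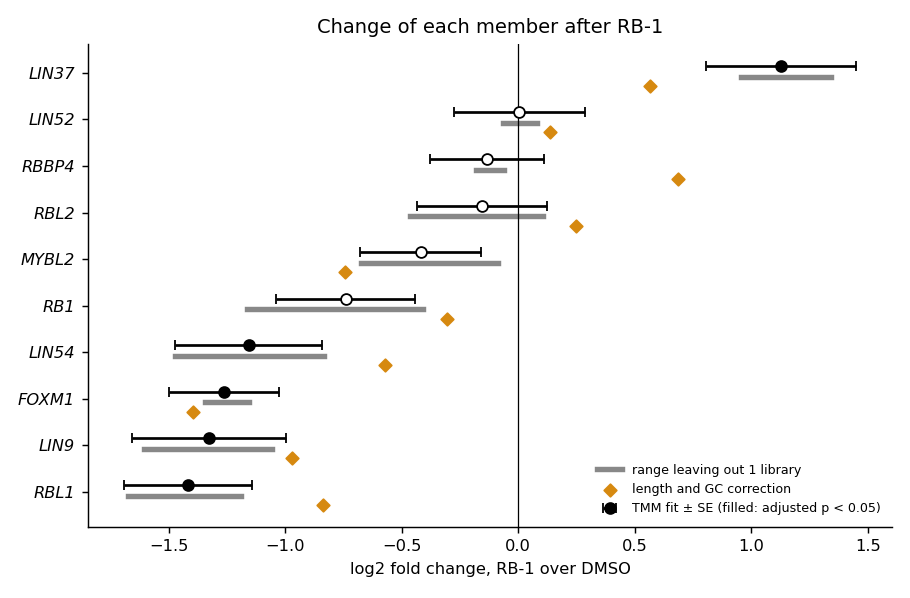
log2 fold change of each member, RB-1 over DMSO, as fitted with TMM factors (circle, bar = SE, filled where the adjusted p is under 0.05), the range over the 4 fits that leave out 1 library (grey bar) and the value after correction for transcript length and GC content (diamond). RBL1, LIN9, FOXM1, LIN54, RB1 and MYBL2 stayed below 0 and LIN37 above 0 in all of these fits, and RBBP4 was at -0.13 before and 0.69 after the correction.

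The length and GC correction left 4 members lower and 1 higher, but not the same genes. RBL1, LIN9 and FOXM1 were lower in both fits, MYBL2 took the place of LIN54, and RBBP4 took that of LIN37. Corrections for length alone and for GC content alone were added after seeing the data. With length alone RBL1, LIN9, FOXM1 and LIN54 were lower and no member was higher. With GC alone RBL1, LIN9, FOXM1 and MYBL2 were lower and LIN37 was higher. The members also differed in how close the RB-1 libraries lay to each other. RB1, LIN54, RBL2, LIN9 and RBL1 were lower in RB-1 replicate 1 than in replicate 2 by 0.75, 0.58, 0.57, 0.51 and 0.48 on the log2 scale. FOXM1, RBBP4, LIN37, LIN52 and MYBL2 differed between these 2 libraries by 0.00 to 0.19. The part of length, of GC content and of RB-1 replicate 1 in the changes was not tested beyond these corrected fits and the fits without that library.

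**Figure D4:**
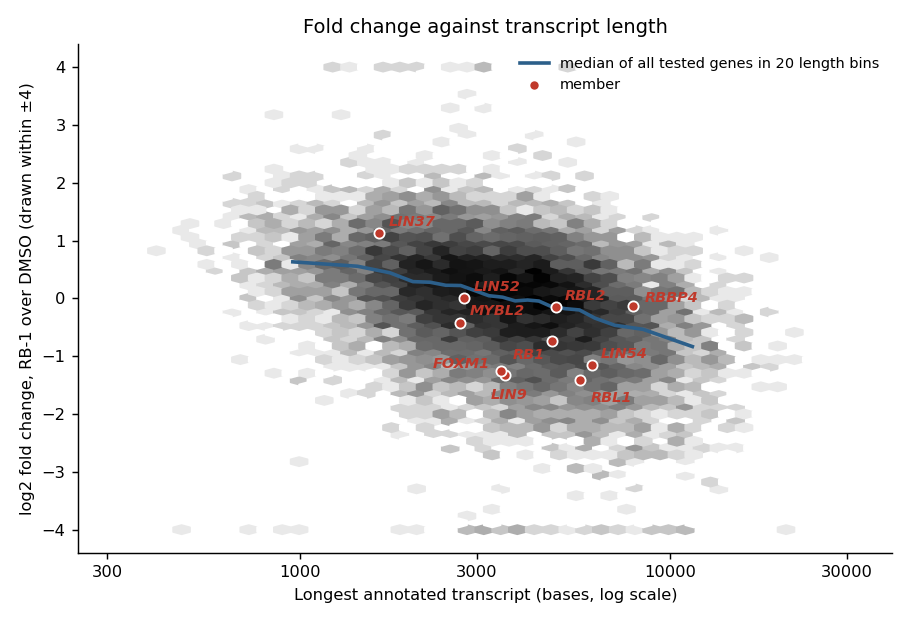
log2 fold change (RB-1 over DMSO) of each tested gene against the length of its longest annotated transcript (log axis), with darker cells holding more genes, the median in 20 length bins (line) and the 10 members (points). LIN37, at 1635 bases, lay above 0 and RBL1, at 5684 bases, below it, as did the medians at those lengths. RBL1 was at -1.42, against a median of -0.46 in the quartile of longest transcripts. LIN37 was at 1.13, against 0.45 in the quartile of shortest transcripts. FOXM1 and LIN9 also lay well below the median of genes of their length.

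Levels of different genes were compared per kilobase of the longest annotated transcript, which may not be the form these cells use. In RB-1 the order of the mean levels was MYBL2 (40.4 CPM per kb), FOXM1 (17.9), RBL2 (14.2), RB1 (11.4), RBBP4 (9.43), LIN52 (8.25), LIN37 (7.22), RBL1 (6.58), LIN54 (5.19) and LIN9 (2.51). In DMSO it was MYBL2 (53.9 CPM per kb), FOXM1 (42.8), RB1 (19.1), RBL1 (17.5), RBL2 (15.8), LIN54 (11.6), RBBP4 (10.3), LIN52 (8.23), LIN9 (6.29) and LIN37 (3.30). RBL1 was thus 8th of 10 in RB-1 and 4th in DMSO. Neighbours whose replicates overlapped were RBL2 and RB1, RB1 and RBBP4, LIN37 and RBL1, and RBL1 and LIN54 in RB-1, and MYBL2 and FOXM1, and LIN54 and RBBP4 in DMSO. In both groups the activators MYBL2 and FOXM1 stood above every pocket protein and every MuvB subunit.

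The other proteins of these complexes were followed as a list of 7, of which 2 fell, none rose and 5 did not pass, with a median log2 fold change of -0.25. The 2 called of 7 are close to the 28.3% called among all tested genes, and both were lower, where 15.8% of all tested genes were. DYRK1A, the kinase that starts DREAM assembly, had 10.1 and 8.57 CPM in RB-1, against 17.9 and 24.3 CPM in DMSO (log2 fold change -1.18 ± 0.31, adjusted p = 0.0187). MYBL1, which encodes A-MYB, a relative of B-MYB, had 24.3 and 54.1 CPM in RB-1, against 102 and 77.5 CPM in DMSO (-1.19 ± 0.37, adjusted p = 0.0386). Both groups of each gene were apart, but the RB-1 libraries of MYBL1 differed more than 2-fold. DYRK1A kept its call without RB-1 replicate 1 (-1.30, adjusted p = 0.0442) and lost it without any of the other 3 libraries (adjusted p = 0.0520 to 0.194) and after the length and GC correction (0.09, adjusted p = 0.865), its longest transcript measuring 17562 bases. With library totals alone neither DYRK1A (adjusted p = 0.0539) nor MYBL1 (adjusted p = 0.0957) passed. MYBL1 kept its call without RB-1 replicate 2 (-1.88, adjusted p = 0.00761) and after the correction (-0.74, adjusted p = 0.0475), and lost it without any of the other 3 libraries (adjusted p = 0.0896 to 0.177).

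The E2F and DP arms of DREAM did not pass the test. E2F4 had 103 and 87.1 CPM in RB-1, against 129 and 124 CPM in DMSO (log2 fold change -0.42 ± 0.23, adjusted p = 0.206). E2F5, the less abundant of these repressor E2Fs in CPM per kb as well, had 22.8 and 25.8 CPM in RB-1, against 17.7 and 11.1 CPM in DMSO (0.75 ± 0.32, adjusted p = 0.102). E2F4 was lower and E2F5 higher in both RB-1 libraries, by less than the test asks. The DP partners TFDP1 (-0.25 ± 0.23, adjusted p = 0.437) and TFDP2 (0.07 ± 0.24, adjusted p = 0.861) and the histone-binding RBBP7 (-0.08 ± 0.23, adjusted p = 0.815) did not pass either. After the length and GC correction E2F5 (1.31, adjusted p = 0.00676) and TFDP2 (0.74, adjusted p = 0.0184) were called higher and E2F4 lower (-0.75, adjusted p = 0.0154), so that with MYBL1 the list then had 2 higher and 2 lower. E2F5 shares 16.3% of its exon bases with RBIS on the opposite strand.

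Enzymes that add phosphate to pocket proteins or remove it made a list of 14, of which 3 fell, 1 rose and 10 did not pass (median log2 fold change -0.24). The 4 called of 14 are close to the 28.3% called among all tested genes. CCNE1 and CCNE2 are counted again in the G1/S list below, and CCNA2 in the late cell cycle list. CCNE2, cyclin E2, fell with 13.7 and 24.7 CPM in RB-1, against 65.6 and 60.1 CPM in DMSO (-1.71 ± 0.33, adjusted p = 0.00498). It kept its call without each library in turn, while 37.0% of its exon bases are shared with INTS8 on the opposite strand. CDK6 (-1.18 ± 0.38, adjusted p = 0.0429) and CCNA2 (-0.74 ± 0.24, adjusted p = 0.0397) fell and CDK4 (1.03 ± 0.30, adjusted p = 0.0275) rose, and each kept its call without RB-1 replicate 2 and lost it without any of the other 3 libraries. After the length and GC correction CDK6 (-0.13, adjusted p = 0.687) and CDK4 (0.59, adjusted p = 0.0746) did not pass, and with library totals alone CCNE2 was the 1 gene called lower. CDK4 shares 43.2% of its exon bases with TSPAN31 on the opposite strand. The D-type cyclins, which pair with CDK4 and CDK6, did not pass: CCND1 was at 0.11 ± 0.23 (adjusted p = 0.732), CCND2 at 0.29 ± 0.37 (adjusted p = 0.579) and CCND3 at 0.20 ± 0.29 (adjusted p = 0.632). Neither did cyclin E1 (CCNE1, -0.15 ± 0.29, adjusted p = 0.724) or its partner kinase CDK2 (0.21 ± 0.27, adjusted p = 0.597). The catalytic subunits of protein phosphatase 1, which strips phosphate from pocket proteins at the end of mitosis, were at 0.20 ± 0.28 (PPP1CA, adjusted p = 0.619), -0.33 ± 0.28 (PPP1CB, adjusted p = 0.415) and -0.38 ± 0.27 (PPP1CC, adjusted p = 0.317). Of protein phosphatase 2A, PPP2CA was at -0.60 ± 0.23 (adjusted p = 0.0706) and the B55 subunit PPP2R2A, known to dephosphorylate p107 and p130, at -0.58 ± 0.26 (adjusted p = 0.120). None of these phosphatase genes passed the test.

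Genes that B-MYB with MuvB and FOXM1 are known to activate late in the cycle fell in larger number than genes of the G1/S transition. Of 40 late cell cycle genes 26 fell, 2 rose and 12 did not pass, with a median log2 fold change of -1.27. Of 40 G1/S genes regulated by E2F, 12 fell, none rose and 28 did not pass, with a median of -0.30. Among all tested genes 15.8% were lower and 28.3% were called in either direction. The 12 called of 40 in the G1/S list are close to that 28.3%, but all 12 were lower, a larger share than the 15.8%. The difference between the lists, which were chosen with earlier results of these data known, was not tested. In the late list CENPF, a kinetochore protein, had 45.0 and 48.3 CPM in RB-1, against 663 and 434 CPM in DMSO (-3.55 ± 0.28, adjusted p = 9.53e-05). MKI67 (-3.11 ± 0.24), the proliferation marker, and ANLN (-2.72 ± 0.25), of the contractile ring, were the other 2 with the smallest p. CENPA (0.97), the centromeric histone, and PTTG1 (0.80), securin, were the 2 that rose, and neither passed after the length and GC correction (0.53, adjusted p = 0.135; 0.29, adjusted p = 0.276), where 30 genes of the late list fell and none rose, and in the G1/S list 15 fell and 1 rose. Without each library in turn, 20 to 24 late genes and 6 to 11 G1/S genes fell, and with library totals alone 22 and 8 fell. CENPA and PTTG1 were called higher without RB-1 replicate 2 and in none of the other 3 fits without 1 library, and 2 G1/S genes were called higher without RB-1 replicate 2. In the G1/S list the smallest p belonged to CLSPN (-2.94 ± 0.30), of the replication checkpoint, POLA1 (-2.57 ± 0.34), of the primase-bound polymerase, and MCM10 (-2.20 ± 0.32), a factor that helps activate the replicative helicase.

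Subunits of the other complexes that hold RBBP4 made a list of 24, with 9 lower, none higher and 15 that did not pass. The median log2 fold change was -0.44. Among all tested genes 15.8% were lower and 28.3% were called in either direction. After the length and GC correction 8 of the list were lower and 1 was higher. EZH2, CHAF1A and CHAF1B also stand in the G1/S list. BPTF, the large subunit of the remodeller NURF, had 23.3 and 38.1 CPM in RB-1, against 167 and 200 CPM in DMSO (-2.58 ± 0.30, adjusted p = 0.000430). SMARCA1, the ATPase that can power NURF, had 18.2 and 24.5 CPM in RB-1, against 81.3 and 56.3 CPM in DMSO (-1.69 ± 0.31, adjusted p = 0.00400). SUZ12, a core subunit of the Polycomb complex PRC2, had 30.4 and 45.7 CPM in RB-1, against 128 and 99.4 CPM in DMSO (-1.58 ± 0.29, adjusted p = 0.00420). In each of these 3 genes every RB-1 library lay more than 2-fold below every DMSO library, and each kept its call without each library in turn and after the length and GC correction. The list count was 3 to 7 lower without each library in turn, 4 with library totals alone and 5 with a correction for length alone.

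**Figure D5:**
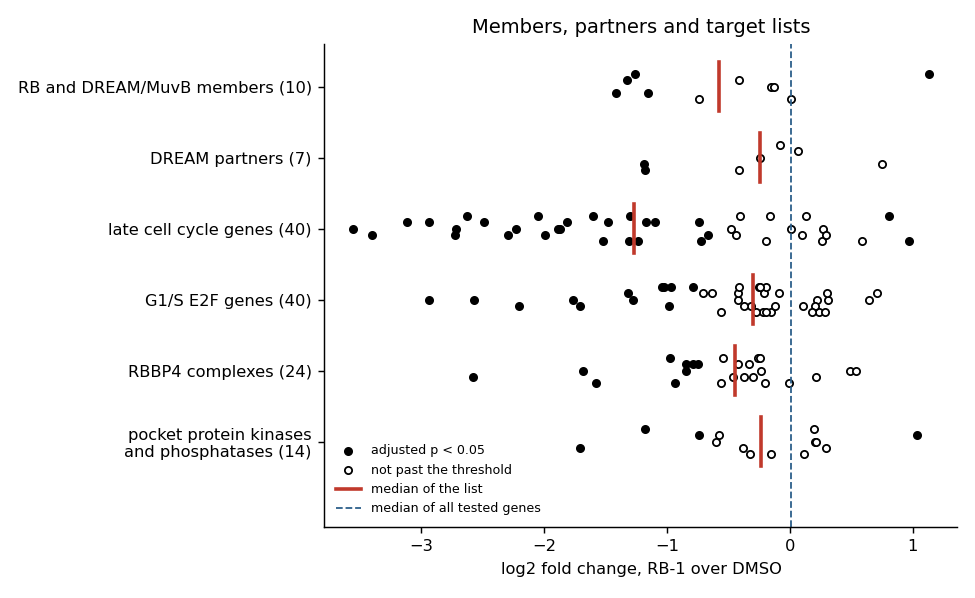
log2 fold change (RB-1 over DMSO) of every gene in the member list and the 5 other lists, with the number of genes in brackets, filled points past the threshold, the median of each list (red bar) and the median of all tested genes (dashed line). The late cell cycle list had its median at -1.27 and the member list at -0.58, against 0.01 for all tested genes.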

How the data were processed

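The deposited table holds raw counts per Ensembl gene ID, 1 column per library, as its values show, and was deposited by the authors. Aligner, counter and strand setting are not given in the sources. The submitters' processing notes list the mouse builds GRCm38 and mm10 while all IDs are human, so no coordinates of counted genes are given. Symbols were matched for 20148 IDs from a supplied table of human gene names, and transcript lengths, GC content and overlaps from GENCODE release 29. Replicates differed by more than counting noise (chi-square of 127 per degree of freedom for RB-1, 255 for DMSO, on genes averaging 10 counts or more) and were kept as separate samples, which does not tell whether they came from separate cultures. Genes were kept by filterByExpr and tested with edgeR 4.0.16 (R 4.3.3; TMM, estimateDisp, robust glmQLFit, glmQLFTest), two-sided, with Benjamini-Hochberg adjustment over all tested genes, on 2 residual degrees of freedom. The SE is the log2 fold change divided by the square root of F. The correction used smooth fits of each library on length and GC content (mgcv 1.9.3). Alternatives included DESeq2 1.42.0 and limma-voom 3.58.1.

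The members and the 5 other lists were chosen with earlier results of these data known. Named are all members, the partners, the kinases and phosphatases and genes sharing their exon bases, and in each other list the 3 genes with the smallest p and up to 2 called against the list's median.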

Additional observations from a re-analysis of the deposited data

How the results depend on the processing

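With 1 library left out, 383 to 1934 of all genes were called higher and 1091 to 2413 lower, and of the members 0 to 1 higher and 2 to 5 lower. Library totals alone called 1381 genes lower and 2 members lower. An adjusted p under 0.01 called 501 genes higher and 1058 lower, and 0 members higher and 2 lower (RBL1 and FOXM1). Correction for length alone, added after seeing the data, called 0 members higher. Upper-quartile factors and library totals alone moved the median log2 fold change of all genes to 0.12 and 0.21, against 0.01, and called 2134 and 2015 genes higher, with 1815 lower for upper-quartile factors. Over all members and alternatives, 125 of 160 values kept their sign and their side of the threshold. The sign turned for RBL2 with library totals alone (0.039), the length and GC correction (0.25), length alone (0.073), GC alone (0.19, also added later) and in the fits without 1 library (-0.47 to 0.11, above 0 without RB-1 replicate 1). It turned for RBBP4 with library totals alone (0.057), the length and GC correction (0.69), length alone (0.48) and GC alone (0.33). LIN52, at 0.00, turned with RLE factors (-0.0051), a minimum mean of 100 counts (-0.0022), DESeq2 (-0.0050), length alone (-0.099) and in the fits without 1 library (-0.063 to 0.079, below 0 without RB-1 replicate 1 or DMSO replicate 1). The cause was not tested. The replicate numbers are not said to mark shared cultures, and same-numbered libraries had a correlation of deviations of -0.0959. With the replicate block 1 member was higher and 4 lower, with 1721 genes higher and 2289 lower. With 2 libraries per group, a member that did not pass may have changed by less than this spread can show.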

Other observations

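In the promoter entries, a CHR word (TTTGAA or TTCGAA) was found for 26 of the 35 late cell cycle genes with an entry (74.3%) and for 4 of 32 G1/S genes (12.5%), where 16.4% of all entries hold one. A gene with several entries was counted if any of them held a word, while the 16.4% counts single entries, so these shares are not measured alike. The late genes were listed as known targets of MuvB, whose LIN54 reads the CHR word, so their share is not independent of that choice. The 26 late genes with a CHR word had a median log2 fold change of -1.54, and 18 of them were lower. The 9 without one had a median of -0.74, and 5 of them were lower. An E2F word was found for 22 of 32 G1/S genes (68.8%) and for 10 of the 35 late genes (28.6%). The 22 G1/S genes with an E2F word had a median log2 fold change of -0.24, with 8 lower, and the 10 without one had a median of -0.32, with 1 lower. These are descriptions of fixed lists, and no difference between genes with and without a word was tested.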
